A study of Mus musculus with 4 samples.

Results

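The circadian clock genes described here are *Arntl* (also called *Bmal1*), *Clock*, *Npas2*, *Per1*, *Per2*, *Per3*, *Cry2*, *Nr1d1*, *Nr1d2* and *Dbp*, which are 10 of the 24454 genes in the count table. They were chosen by name, with earlier results of these data known, and found through their Entrez Gene identifiers. All 10 had enough reads to be tested. RNA-seq of hearts from mouse pups at postnatal day 7 (P7) was compared between 2 Ctrl libraries (WH7 and WH8) and 2 miR-128OE libraries (WH9 and WH10). miR-128OE mice carried *α-MHC*-tTA together with *miR-128* TetRE, a "Tet-off" pair in which the cardiomyocyte promoter of *α-MHC* drives a transactivator that switches on *miR-128* unless doxycycline (Dox) is given. Ctrl mice carried *miR-128* TetRE alone, so the responder transgene was in both groups and the transactivator was not, and the mice were on a C57BL/6 background. The Dox schedule of these 4 libraries, the hour at which each heart was collected and whether each library is 1 animal are not given in the sources used here, so a p-value measures only the spread between these libraries.

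The clock of mammalian cells is a loop of transcription factors that takes about a day. ARNTL pairs with CLOCK, or with its relative NPAS2, and the pair binds E-boxes to switch on the *Per* and *Cry* genes, whose proteins then block the pair. The same pair switches on *Nr1d1* and *Nr1d2*, which encode REV-ERB repressors that compete with ROR activators at *Arntl*, *Clock* and *Npas2*, and *Dbp*, which encodes an activator that binds D-boxes in other genes. In hearts of adult mice, *Arntl* and *Npas2* mRNA are high near the end of the dark period, whereas *Dbp*, *Nr1d1*, *Nr1d2* and the *Per* genes are high at the opposite side of the day, and in newborn rodents these rhythms are still developing. In the heart, clock factors are known to time genes of fuel use and of potassium currents.

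Library totals ranged from 8096870 (WH8) to 14359838 (WH10) counts, and the spread between replicates over all genes, as a common coefficient of variation, was 8.78%. The *miR-128* precursors check the labels only weakly, since *Mir128-1* had 0 counts in all 4 libraries, and *Mir128-2* had 0 in both Ctrl libraries, 2 in WH9 and 10 in WH10. Mature miRNA was not measured by these libraries. The 2 groups also differed in sex, since the 5 sex-linked genes examined were all called and split the libraries by group, so that genotype and sex cannot be told apart. WH8 stood apart in atrial genes, with 8267 normalized counts summed over 5 markers against 24843 to 69298 in the other libraries. Among markers of the cells of the heart, 4 of 8 cardiomyocyte genes were called higher and 2 lower, 2 of 6 endothelial genes higher and 1 lower, 1 of 7 fibroblast genes higher, and 2 of 6 smooth muscle and pericyte genes higher and 1 lower. Of all genes tested, 16.5% were called higher and 15.0% lower. None of 6 macrophage genes was called by edgeR's quasi-likelihood test or by DESeq2, and 1 was lower at an unadjusted p under 0.05 and by edgeR's exact and likelihood ratio tests. None of the 5 atrial genes was called by these tools or at an unadjusted p under 0.05. The summed level of the cardiomyocyte markers was 453081 to 472799 normalized counts in Ctrl and 549682 to 562765 in miR-128OE libraries, and that of the brown fat markers was 459 to 491 and 746 to 974, with 3 of 5 called higher. The 4 hemoglobin genes were at 0 in all 4 libraries, which leaves *Alas2* as the only erythroid marker tested, and it was called higher. The part of these differences in the clock values was not tested. In bulk heart RNA, a lower share of one cell type and less RNA in each cell of that type cannot be told apart.

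In miR-128OE hearts, *Arntl*, *Per1* and *Cry2* rose and *Per3* and *Nr1d2* fell, while *Clock*, *Npas2*, *Per2*, *Nr1d1* and *Dbp* did not pass the test. A gene is called where its adjusted p-value from edgeR's quasi-likelihood test, corrected by the Benjamini-Hochberg method over 14266 genes, is under 0.05. By this rule 5 of the 10 clock genes were called, against 31.5% of all genes tested. In the higher direction 3 of 10 were called against 16.5% of all genes, and in the lower direction 2 of 10 against 15.0%. The libraries of the 2 groups did not overlap for 6 of 10 clock genes, which is close to the 68.1% of all genes for which this was so. The median log2 fold change was 0.10 over the clock genes and −0.01 over all genes tested, and none of the 10 changed by as much as 1.5-fold. All normalized counts below are counts scaled to the mean effective library size, each fold change is miR-128OE against Ctrl, and means are given with the SD (n = 2).

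**Figure D1:**
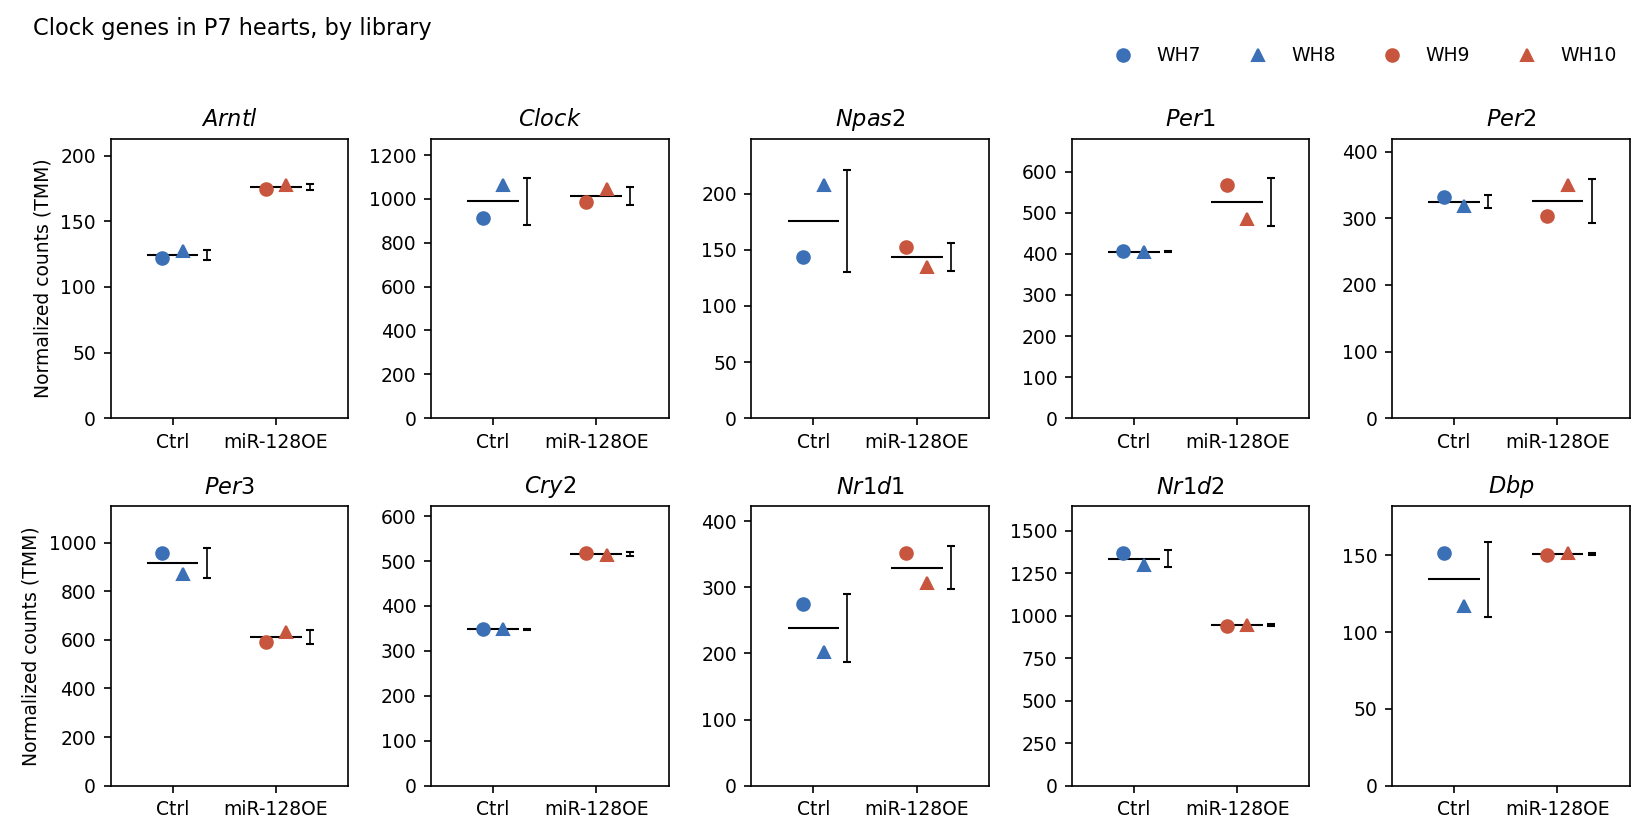
Normalized counts (vertical axes, linear and starting at 0) of the 10 clock genes in each library, with Ctrl in blue and miR-128OE in red, circles for WH7 and WH9, triangles for WH8 and WH10, horizontal lines for group means and bars for ± 1 SD (n = 2). *Per3* and *Nr1d2* lie lower in both miR-128OE libraries, *Arntl*, *Per1*, *Cry2* and *Nr1d1* lie higher, and the other genes overlap.

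The sequence of *miR-128-3p* and its matches are shown because the transgene was built to raise this miRNA. In RefSeq (GRCm38.p6) the mature sequence reads as follows, 5′ to 3′, with the seed, bases 2 to 8, in capitals.
miR-128-3p: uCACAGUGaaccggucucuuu
Matches to the seed (CACTGTG, or ACTGTGA where an A faces base 1 of the miRNA) were looked for in the longest 3′UTR that GENCODE M21 gives each gene, on the sense strand. Of the 10 clock genes 3 held at least 1 match, which is 30%, against 31.0% of 13494 tested genes with a 3′UTR. The matches are printed in capitals with the bases beside them.
Clock, base 500 of a 3′UTR of 6831 bases: aggtttgaattCACTGTGtacagatgctg
Clock, base 2781: ttagagacgagACTGTGAgaggaaagcaa
Clock, base 5627: agtgaaaacaaACTGTGAcatcgctttaa
Per3, base 2130 of 2224: gttcataattaACTGTGAatttgcttgta
Nr1d2, base 809 of 2631: caatattttaaACTGTGAagaactttatc
*Per3* and *Nr1d2*, both called lower, each held 1 match, and *Clock*, which held 3, had a log2 fold change of 0.04. A match describes the letters only, and the part of these matches in the values was not tested.

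Promoters, taken from RefSeq as 250 bases before to 50 bases after each start, were searched on both strands for the elements through which the loop works. RefSeq gave a promoter for 9 of the 10 clock genes, and *Per2* is named only. RefSeq gives *Per1* and *Arntl* 2 starts each, and a gene is counted where any of its promoters holds the element. An E-box (CACGTG) was in a promoter of 1 of these 9 genes, *Per1*, at 1 of its 2 starts, and in 11.4% of the 11250 tested genes with a promoter. A D-box (TTATGTAA or TTACGTAA) was in that of *Per3*, against 0.88% of all, and the ROR response element was at 1 of the 2 starts of *Arntl*, against 0.204%. The cAMP response element (TGACGTCA) was in none of the 9 in this exact form and in 3.4% of all. Elements outside these windows, or in other forms, were not searched for, so a gene without a match here may still hold the element elsewhere. These 3 promoters are printed in full, with the elements in capitals, since they belong to 3 of the 5 called genes.
Per3, chr4:151044616-151044915, minus strand: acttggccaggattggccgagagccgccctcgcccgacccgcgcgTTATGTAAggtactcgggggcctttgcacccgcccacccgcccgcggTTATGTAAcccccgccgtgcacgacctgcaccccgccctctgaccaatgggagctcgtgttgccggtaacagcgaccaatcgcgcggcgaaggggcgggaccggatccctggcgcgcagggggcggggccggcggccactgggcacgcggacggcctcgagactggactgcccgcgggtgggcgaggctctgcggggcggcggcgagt
Per1, chr11:69098699-69098998, plus strand: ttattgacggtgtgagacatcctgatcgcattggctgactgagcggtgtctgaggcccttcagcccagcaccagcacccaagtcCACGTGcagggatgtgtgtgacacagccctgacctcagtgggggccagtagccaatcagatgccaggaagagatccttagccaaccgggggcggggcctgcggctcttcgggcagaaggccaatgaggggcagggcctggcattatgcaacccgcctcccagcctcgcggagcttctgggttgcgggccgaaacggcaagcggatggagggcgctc
Arntl, chr7:113207261-113207560, plus strand: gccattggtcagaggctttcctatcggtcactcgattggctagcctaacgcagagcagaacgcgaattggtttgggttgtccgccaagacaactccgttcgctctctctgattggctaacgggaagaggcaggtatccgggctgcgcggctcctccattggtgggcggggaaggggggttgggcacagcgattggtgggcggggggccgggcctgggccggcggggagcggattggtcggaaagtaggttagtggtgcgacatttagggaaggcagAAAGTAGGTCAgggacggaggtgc
The D-boxes of *Per3*, which fell, began 205 and 158 bases before its start. The E-box of *Per1*, which rose, began 166 bases before the start, and the ROR element of *Arntl*, which rose, began 26 bases after the start.

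Among the activators, *Arntl* (Entrez 11865, GRCm38 chromosome 7, 113178471 to 113314126), which encodes the partner shared by CLOCK and NPAS2, had 122 and 127 normalized counts in WH7 and WH8 (Ctrl) and 174 and 177 in WH9 and WH10 (miR-128OE). Both miR-128OE values lay above both Ctrl values, and the gene rose 1.42-fold from 124 ± 3.94 to 176 ± 2.27. Its log2 fold change was 0.50 with a standard error of 0.15 (95% confidence interval 0.16 to 0.84, adjusted p = 0.0313). This call rests on few reads, from 90 to 211 per library. It was lost with the DESeq2 test (adjusted p = 0.131) and with scaling by total counts (adjusted p = 0.0692). The call was also lost without WH7, WH9 or WH10, which leaves 1 library in a group, with log2 fold changes of 0.47, 0.53 and 0.50.

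*Clock* (Entrez 12753, chromosome 5, 76209868 to 76305603), which encodes the usual partner of ARNTL, had 914 and 1063 normalized counts in Ctrl and 986 and 1043 in miR-128OE libraries. The miR-128OE values lay between the Ctrl values, and the log2 fold change was 0.04 (95% confidence interval −0.17 to 0.26, adjusted p = 0.766). *Npas2* (Entrez 18143, chromosome 1, 39193702 to 39363240), the partner that can stand in for CLOCK, had 144 and 208 in Ctrl against 152 and 135 in miR-128OE libraries. The groups overlapped, with a log2 fold change of −0.27 (95% confidence interval −0.71 to 0.17, adjusted p = 0.320). The value turned on which Ctrl library was used, since without WH7 the log2 fold change was −0.54 (adjusted p = 0.0306) and without WH8 it was −0.00059.

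The repressors of the pair moved in different directions. *Per1* (Entrez 18626, chromosome 11, 69095108 to 69109965) encodes a PERIOD protein, and its gene also answers to cAMP and glucocorticoids. It had 406 and 404 normalized counts in Ctrl and 567 and 484 in miR-128OE libraries, so that the lowest miR-128OE value lay above both Ctrl values. The gene rose 1.30-fold, and its log2 fold change was 0.37 (standard error 0.11, 95% confidence interval 0.13 to 0.62, adjusted p = 0.0290). The call was lost without WH9 (adjusted p = 0.273), the library with the highest *Per1* level, with the DESeq2 test (adjusted p = 0.0790) and with scaling by total counts (adjusted p = 0.0811).

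*Per2* (Entrez 18627, chromosome 1, 91415977 to 91459351), another PERIOD gene, had 332 and 318 normalized counts in Ctrl and 303 and 350 in miR-128OE libraries. The Ctrl values lay inside the range of the miR-128OE values, and the log2 fold change was 0.01 (95% confidence interval −0.26 to 0.28, adjusted p = 0.973). *Per3* (Entrez 18628, chromosome 4, 150997018 to 151044707), the PERIOD gene that the loop can run without, had 959 and 872 in Ctrl against 593 and 633 in miR-128OE libraries. The groups were well apart, and *Per3* fell from 916 ± 61.7 to 613 ± 28.5, a log2 fold change of −0.58 (standard error 0.09, 95% confidence interval −0.78 to −0.38, adjusted p = 0.00157). This call held in all 13 alternatives run on single genes, with log2 fold changes from −0.68 to −0.50. *Per3* is the clock gene whose promoter, printed above, held D-boxes.

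*Cry2* (Entrez 12953, chromosome 2, 92403646 to 92434085), which encodes one of the cryptochromes that carry the repression with PERIOD proteins, had 348 normalized counts in each Ctrl library and 519 and 513 in WH9 and WH10. The replicates lay close together, at 348 ± 0.519 and 516 ± 4.06, and *Cry2* rose 1.48-fold, or by 0.57 on the log2 scale (standard error 0.10, 95% confidence interval 0.34 to 0.79, adjusted p = 0.00273). It was called in all 13 alternatives, from 0.47 to 0.60. A transcript on the other strand, *D930015M05Rik*, shares 295 exonic bases with *Cry2* but had 1 to 6 counts per library.

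The REV-ERB genes, which are co-expressed in most tissues, also had opposite signs. *Nr1d1* (Entrez 217166, chromosome 11, 98767932 to 98775377) had 274 and 202 normalized counts in Ctrl and 352 and 307 in miR-128OE libraries. Both miR-128OE values lay above both Ctrl values, but the Ctrl libraries were far apart, and the log2 fold change of 0.45 (standard error 0.16, 95% confidence interval 0.10 to 0.80) missed the threshold (adjusted p = 0.0549). It was called without WH7 (0.70, adjusted p = 0.00326), with the exact and likelihood ratio tests of edgeR (adjusted p = 0.0269 and 0.0287) and without the filter on low counts (adjusted p = 0.00456). Exons of *Nr1d1* and of *Thra*, which encodes a thyroid hormone receptor, overlap on opposite strands over 263 exonic bases. *Thra* fell, with 2295 and 2530 normalized counts in Ctrl and 1994 and 1935 in miR-128OE libraries and a log2 fold change of −0.30 (adjusted p = 0.0228). How strand was handled in the counting is not given in the sources used here, so reads from the shared bases cannot be told apart.

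*Nr1d2* (Entrez 353187, chromosome 14, 18204056 to 18239106) was the clock gene with the highest counts, with 1373 and 1302 normalized counts in Ctrl and 942 and 949 in miR-128OE libraries. The groups did not overlap, and *Nr1d2* fell from 1337 ± 50.2 to 945 ± 5.07, a log2 fold change of −0.50 (standard error 0.08, 95% confidence interval −0.68 to −0.32, adjusted p = 0.00174). It was called in all 13 alternatives, from −0.60 to −0.41.

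*Dbp* (Entrez 13170, chromosome 7, 45705100 to 45710203), the D-box activator and in adult tissues one of the genes with the widest daily swing, had 152 and 117 normalized counts in Ctrl and 150 and 151 in miR-128OE libraries. Both miR-128OE values lay between the Ctrl values, and the log2 fold change was 0.15 (95% confidence interval −0.24 to 0.54, adjusted p = 0.544). Exons of *Sphk2*, a sphingosine kinase gene on the other strand, overlap *Dbp* over 539 bases, and *Sphk2* did not pass the test (log2 fold change 0.23, adjusted p = 0.231).

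**Figure D2:**
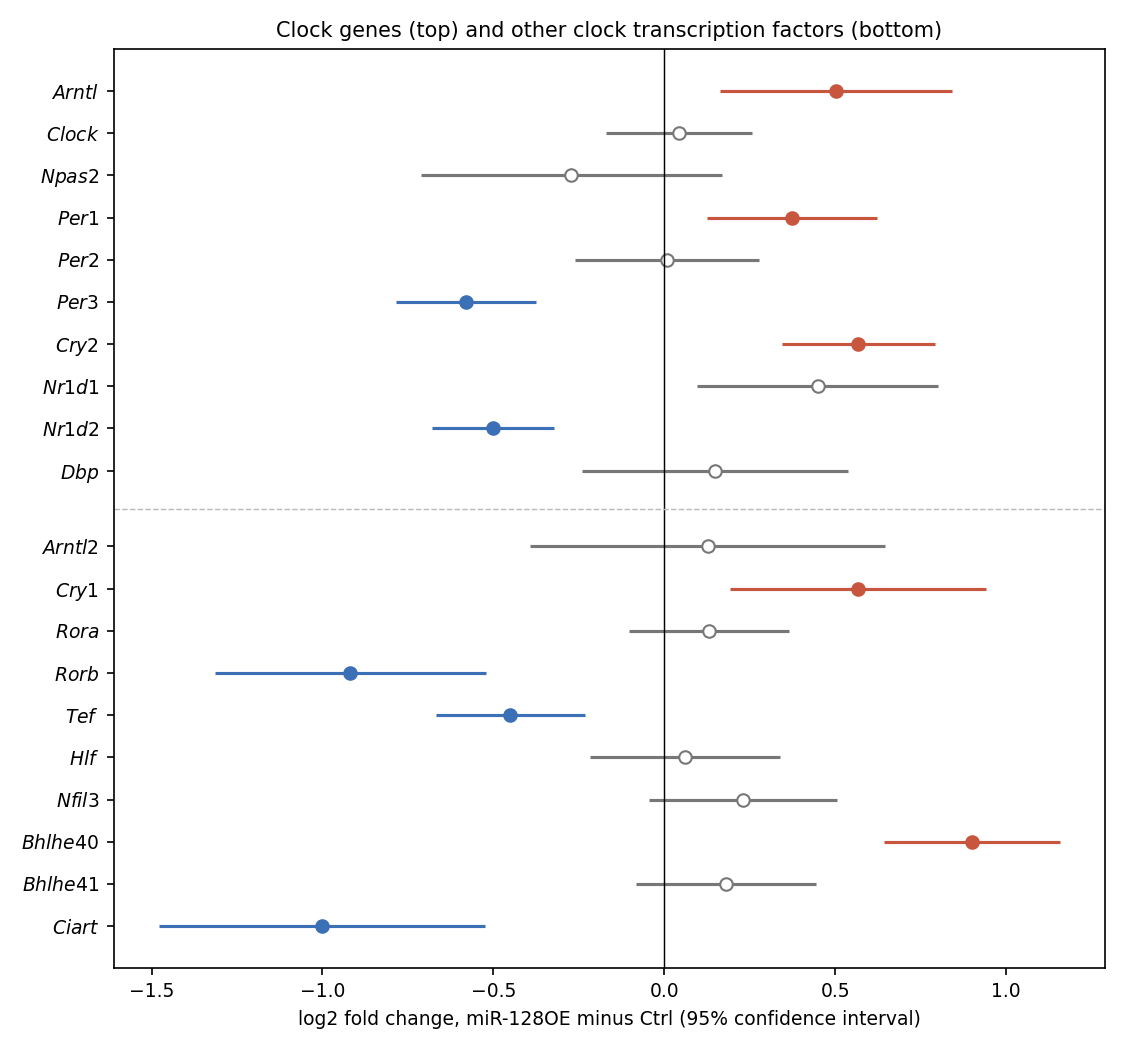
Log2 fold change of miR-128OE against Ctrl (horizontal axis) with its 95% confidence interval for the 10 clock genes and for 10 of the other clock and output transcription factors, with called genes filled in red (higher) or blue (lower) and other genes open in grey. *Per3* at −0.58 and *Nr1d2* at −0.50 lie to the left of 0 and *Arntl* at 0.50, *Per1* at 0.37 and *Cry2* at 0.57 to the right.

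Levels between genes can be compared only per length, here as counts per kb of exon in GENCODE M21 scaled to effective library size (RPKM). In Ctrl hearts *Nr1d2* stood first at 21.0 RPKM and *Per3* next at 8.1 RPKM. *Nr1d1* (5.58 to 7.57 RPKM), *Clock* (5.65 to 6.58 RPKM) and *Per1* (6.10 to 6.12 RPKM) followed and overlapped each other, and *Per2* (4.61 to 4.81 RPKM) overlapped *Cry2* at 4.67 to 4.68 RPKM. *Dbp* (3.33 to 4.31 RPKM) and *Npas2* (2.55 to 3.68 RPKM) overlapped as well, and *Arntl* was lowest at 1.40 RPKM. In miR-128OE hearts *Nr1d2* was still first, at 14.8 RPKM. It was followed by *Nr1d1* at 9.10 RPKM and *Per1* at 7.93 RPKM, whose ranges of 8.47 to 9.73 and 7.31 to 8.56 RPKM overlapped. *Cry2* at 6.93 RPKM, *Clock* at 6.28 RPKM and *Per3* at 5.42 RPKM came next. *Arntl* remained the lowest, at 1.99 RPKM.

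Ratios of counts within a library do not depend on its depth or scaling, and those given here were chosen after the values were seen, so they carry no test. The count of *Per1* for each count of *Per3* was 0.423 and 0.464 in Ctrl and 0.957 and 0.765 in miR-128OE libraries, a 1.93-fold difference. *Nr1d1* to *Nr1d2* was 0.200 and 0.155 in Ctrl and 0.374 and 0.324 in miR-128OE libraries, a 1.98-fold difference. Each of these pairs joins genes that are high at the same side of the day in adult tissues, and in each the miR-128OE libraries lay apart from the Ctrl libraries.

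*Arntl* to *Npas2*, which pairs genes of the opposite side of the day, was 0.847 and 0.612 in Ctrl and 1.14 and 1.32 in miR-128OE libraries. Across the sides of the day, *Arntl* to *Nr1d1* was 0.443 and 0.629 in Ctrl and 0.494 and 0.578 in miR-128OE libraries, with the miR-128OE values inside the Ctrl range. *Npas2* to *Dbp* also overlapped, at 0.946 and 1.77 against 1.01 and 0.889. The other 2 such ratios did not overlap and differed in opposite directions. *Npas2* to *Nr1d1* was 0.523 and 1.03 in Ctrl and lower, at 0.433 and 0.438, in miR-128OE libraries, and *Arntl* to *Dbp* was 0.801 and 1.08 in Ctrl and higher, at 1.16 and 1.17, in miR-128OE libraries. By gene, the side of *Arntl* had log2 fold changes of 0.50 for *Arntl*, which was called, and of −0.27 for *Npas2*, which was not called and was at −0.00059 without WH8. On the other side *Per1* at 0.37 was called higher and *Per3* at −0.58 and *Nr1d2* at −0.50 were called lower. *Per2* at 0.01, *Nr1d1* at 0.45 and *Dbp* at 0.15 were not called, and without WH8 *Dbp* was at −0.0042. With 1 time point and no recorded hour, a difference in the time of collection was not tested, and it cannot be told apart from genotype and sex.

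**Figure D3:**
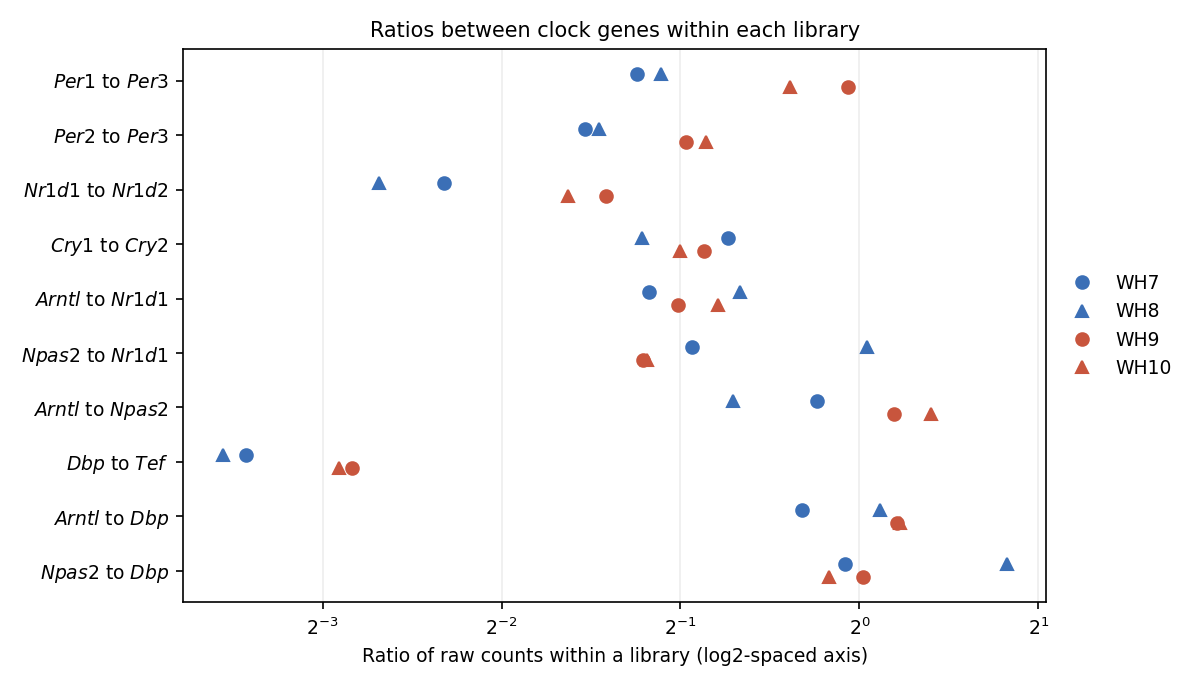
Ratio of the counts of each pair of clock genes (horizontal axis, log2 scale) in each library, with Ctrl in blue and miR-128OE in red, circles for WH7 and WH9 and triangles for WH8 and WH10. The ratios of *Per1* to *Per3* and of *Nr1d1* to *Nr1d2* are higher in both miR-128OE libraries, and the ratio of *Arntl* to *Nr1d1* overlaps between the groups.

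Beyond the 10 genes, 11 other core clock and direct output transcription factors were tested. Of these 2 rose and 3 fell, against 16.5% and 15.0% of all genes, with a median log2 fold change of 0.13. *Bhlhe40*, which encodes DEC1, a repressor at E-boxes, had 287 and 324 normalized counts in Ctrl and 534 and 600 in miR-128OE libraries and rose 1.87-fold (log2 fold change 0.90, standard error 0.11, adjusted p = 0.000578). *Cry1*, the paralog of *Cry2*, had 209 and 150 in Ctrl and 284 and 257 in miR-128OE libraries and rose (0.57, standard error 0.17, adjusted p = 0.0287). The ratio of *Cry1* to *Cry2* overlapped between the groups, at 0.601 and 0.431 in Ctrl and 0.548 and 0.50 in miR-128OE libraries.

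*Tef*, which encodes a D-box activator akin to DBP, had 1634 and 1382 normalized counts in Ctrl and 1075 and 1137 in miR-128OE libraries and fell (−0.45, standard error 0.10, adjusted p = 0.00749). *Dbp* to *Tef* was thus 0.0929 and 0.0849 in Ctrl and 0.140 and 0.133 in miR-128OE libraries. *Ciart*, which encodes the repressor CHRONO, had 162 and 219 in Ctrl and 79.2 and 108 in miR-128OE libraries and fell (−1.002, standard error 0.21, adjusted p = 0.00711). Its promoter held 3 E-boxes, which are shown with the bases beside them because *Ciart* had the largest log2 fold change, in size, of the clock factors named here.
Ciart, 116 bases before the start: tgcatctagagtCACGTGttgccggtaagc
Ciart, 58 bases before the start: cgcagggggaggCACGTGcagaaccgcacg
Ciart, 44 bases before the start: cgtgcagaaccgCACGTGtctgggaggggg
An E-box was in 4 of the 9 of these 11 factors that had a promoter, against 11.4% of tested genes with a promoter. Besides *Ciart*, *Cry1*, which rose, held 1 at 60 bases before its start. *Tef*, which fell, held 1 at each of its 2 starts, 127 and 138 bases before them. *Bhlhe41*, which was not called, held 1 at 153 bases before its start.

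*Rorb*, an ROR activator known mainly from brain and retina, had 147 and 161 normalized counts in Ctrl and 77.2 and 84.9 in miR-128OE libraries and fell (−0.92, standard error 0.18, adjusted p = 0.00446). *Rora*, another ROR gene, did not pass, with a log2 fold change of 0.13. Further factors were at 0.06 for *Hlf*, 0.13 for *Arntl2*, 0.18 for *Bhlhe41* and 0.23 for *Nfil3*, and none of these passed the test. The calls of *Cry1*, *Rorb*, *Tef* and *Ciart* were lost without WH9 (adjusted p = 0.173, 0.0509, 0.112 and 0.0684), and those of *Cry1* and *Tef* also without WH10 (adjusted p = 0.0730 and 0.0549). *Cry1* was further lost without WH8 (adjusted p = 0.0643) and with scaling by total counts (adjusted p = 0.0621).

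The enzymes that set the stability of clock proteins were counted next. Of 13 tested kinase, phosphatase and ubiquitin ligase genes, 5 rose and 1 fell, against 16.5% and 15.0% of all genes. The median log2 fold change was 0.17. The gene that fell was *Btrc*, which encodes a ligase that marks PERIOD proteins for decay. It had 393 and 430 normalized counts in Ctrl and 233 and 226 in miR-128OE libraries (−0.84, adjusted p = 0.00083). *Fbxw11*, another ubiquitin ligase gene of this list, rose (0.37, adjusted p = 0.0311) and was picked out after its value was seen. Those that rose included *Prkaa2* (0.47, adjusted p = 0.00821), a catalytic subunit of AMPK, which acts on cryptochromes, *Ppp1cb* (0.41, adjusted p = 0.00678) and *Gsk3b* (0.34, adjusted p = 0.00996). Without WH9 these 3 lost the call (adjusted p = 0.111, 0.118 and 0.110), and *Gsk3b* also did without WH10 (adjusted p = 0.0716).

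Of 18 co-regulator genes 6 fell, with a median log2 fold change of −0.09. In either direction this is a called share of 33.3%, against 31.5% of all genes tested. All called genes of this list fell, so the share in the lower direction is also 33.3%, against 15.0% of all genes. In the higher direction 16.5% of all genes were called. In the quasi-likelihood test of edgeR 0 rose, 1 was higher at an unadjusted p under 0.05, and 0 rose by DESeq2 or by edgeR's exact and likelihood ratio tests. *Ncor1*, the co-repressor that REV-ERB proteins recruit, had 3882 and 4061 normalized counts in Ctrl and 2664 and 2548 in miR-128OE libraries (−0.61, adjusted p = 0.000618). *Kmt2a*, a histone methyltransferase gene, fell by 0.80 on the log2 scale (adjusted p = 0.000163), *Crebbp*, a histone acetyltransferase gene, by 0.66 (adjusted p = 0.00096) and *Ezh2*, the methyltransferase gene of Polycomb, by 0.58 (adjusted p = 0.00146). These are general regulators of chromatin and act far beyond the clock.

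Of 11 genes that follow the clock in many tissues 6 rose and 1 fell, against 16.5% and 15.0% of all genes, with a median log2 fold change of 0.31. This list and the others were chosen with earlier results of these data known, so their shares carry no test. *Por*, the reductase that serves cytochrome P450 enzymes, had 442 and 380 normalized counts in Ctrl and 626 and 693 in miR-128OE libraries (0.68, adjusted p = 0.00186). *Usp2*, a ubiquitin protease gene, rose by 0.56 (adjusted p = 0.00238), *Cdkn1a*, a cell cycle inhibitor gene, by 0.42 (adjusted p = 0.00603) and *Tsc22d3* by 0.34 (adjusted p = 0.0171). The call of *Cdkn1a* was lost without WH9 or WH10 (adjusted p = 0.0578 and 0.0585), and that of *Tsc22d3* without WH9 (adjusted p = 0.210) and with scaling by total counts (adjusted p = 0.0567).

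For genes with a known daily rhythm in the heart, 5 of 14 rose and 6 fell, against 16.5% and 15.0% of all genes. The median log2 fold change was 0.11. *Nmrk2*, which takes part in NAD synthesis, had 631 and 671 normalized counts in Ctrl and 202 and 260 in miR-128OE libraries (−1.49, adjusted p = 9.95e-05). *Kcnip2*, a subunit of the transient outward potassium current, fell by 0.81 (adjusted p = 0.00122), and *Dgat2*, an enzyme of triglyceride synthesis, rose by 0.77 (adjusted p = 0.000625). The clock is 1 of many inputs to these genes, and its part was not tested.

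**Figure D4:**
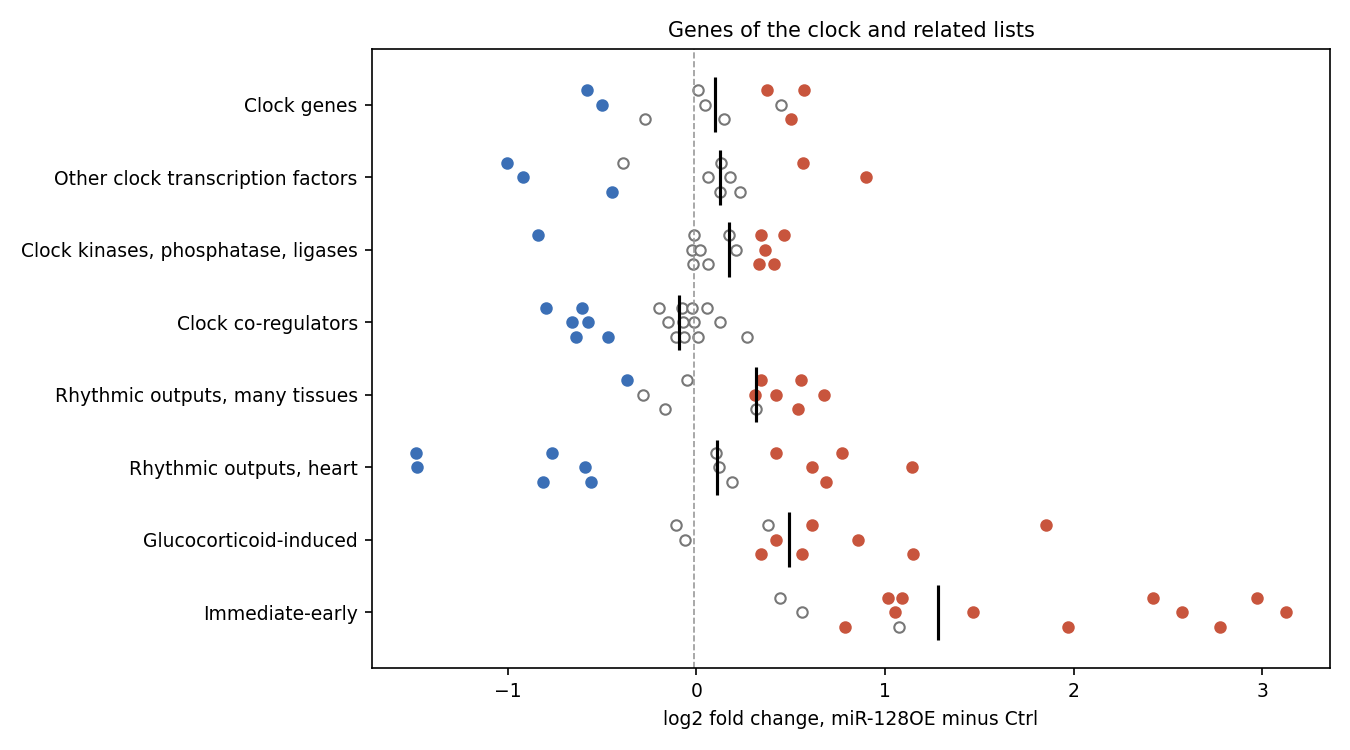
Log2 fold change of miR-128OE against Ctrl (horizontal axis) for each tested gene of the clock and output lists, with called genes in red (higher) or blue (lower), other genes open in grey, list medians as black bars and the median of all genes as a dashed line. The immediate-early genes have the highest median, at 1.28, and the clock genes have a median of 0.10.

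*Per1* is also known to answer to glucocorticoids and to cAMP, so the lists that mark these inputs were read beside it. Of 10 glucocorticoid-induced genes 7 rose, against 16.5% of all genes. Of the 10, 0 were lower by any of the 4 tests or at an unadjusted p under 0.05 in edgeR. The median log2 fold change was 0.49, and summed levels were 6614 and 7574 normalized counts in Ctrl and 10994 and 10148 in miR-128OE libraries. *Zbtb16* (1.85, adjusted p = 0.000142), *Sgk1* (1.15, adjusted p = 2.89e-05) and *Mt1* (0.86, adjusted p = 0.000234) led this list. *Fkbp5*, a widely used marker of glucocorticoid action, was at −0.11 and did not pass. *Klf9* at −0.06 (adjusted p = 0.685) and *Mt2* at 0.38 (adjusted p = 0.0771) did not pass either. *Fkbp5*, *Klf9* and *Mt2* were picked out after their values were seen. *Cdkn1a* and *Tsc22d3*, given above, belong to this list too.

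Of 14 immediate-early genes, which serum and cAMP induce within minutes, 11 rose, against 16.5% of all genes, with a median log2 fold change of 1.28. Of the 14, 0 were lower by any of the 4 tests or at an unadjusted p under 0.05 in edgeR. Their summed levels were 4187 and 3793 normalized counts in Ctrl and 13572 and 13866 in miR-128OE libraries. *Fos* had 69.5 and 66.4 normalized counts in Ctrl and 599 and 594 in miR-128OE libraries (3.13, adjusted p = 1.36e-06). *Nr4a1* rose by 2.77 (adjusted p = 4.04e-07), *Egr1* by 2.57 (adjusted p = 2.44e-06) and *Dusp1* by 2.42 (adjusted p = 4.85e-07). The log2 fold change of *Per1* was 0.37 beside these, and their part in the level of *Per1* and *Bhlhe40* was not tested.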

How the data were processed

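RNA-seq counts of 2 Ctrl and 2 miR-128OE hearts at P7 were used. The authors removed reads of low quality, aligned the rest to mm10 with TopHat2, used Bioconductor packages to count those on known genes and deposited raw counts for 24454 Entrez Gene identifiers. Gene models, strand and the rule for reads with several matches are not given in the sources used here. Identifiers were matched to RefSeq symbols (24374 of 24454).

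Counts were fitted with edgeR 4.0.16 in R 4.3.3 with filterByExpr defaults (14266 genes kept), TMM factors and its quasi-likelihood test, since the study's methods name edgeR. Each standard error came from dividing the log2 fold change by the root of F. The fit was tested on simulated data. Totals of 8096870 to 14359838 counts limit the precision, 3 counts were the floor, and both cover counting error only. The members and lists were chosen with earlier results of these data known. Named were all 10 members, 11 related transcription factors and, of each other list, at most the 4 called genes with the smallest p. A few that the rule names are left out of the text. *Thra*, *Sphk2*, *D930015M05Rik*, *Fbxw11*, *Fkbp5*, *Klf9*, *Mt2* and *Alas2* were added after their values were seen. Alternatives were DESeq2 1.42.0, edgeR's exact and likelihood ratio tests, other scaling, other filters, an offset for GC content and length, a fold of 1.5, and each library left out. Lengths, exon overlaps and 3′UTRs came from GENCODE M21, and promoters and the miRNA from RefSeq.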

Additional observations from a re-analysis of the deposited data

How the results depend on the processing

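No paired analysis was possible because the labels give the groups no shared replicate numbers. Of 130 repeats of the clock genes' values (10 genes in 13 alternatives), 108 kept the direction and the side of the threshold, 8 lost the call, 5 gained one and 9 changed sign. The count of clock genes called, 5, became 3 (1 higher and 2 lower) with DESeq2 and with scaling by total counts, and 0 with a fold of 1.5 also required, and it ran from 3 (without WH9) to 6 (without WH7) when 1 library was left out, with 5 without WH8. The 3 genes called by DESeq2 were *Cry2*, *Per3* and *Nr1d2*, which were called in all 13 alternatives. The wider clock and output genes, 35 called, gave 18 (6 higher and 12 lower) with the fold of 1.5 and 13 (without WH9) to 39 with 1 library left out. All genes, 4490 called, gave 2122 with the fold of 1.5 and 1564 (without WH9) to 5038 with 1 library left out, and without WH10 gave 2285. Without WH7 or WH8 the count of all genes was not lower, at 5038 and 4564, and the cause was not tested. Scaling by total counts moved the median of all genes to −0.11 and the split to 1611 higher and 2948 lower, from 2347 and 2143. Over all 14266 genes tested, DESeq2 called 3124 and scaling by total counts 4559, against 4490 in the main test. Of 572 repeats over the genes that the naming rule gives, 11 changed sign, in 4 genes that were not called. With upper-quartile factors *Clock* was −0.0026 and *Per2* −0.0399. With total counts *Clock* was −0.0563, *Per2* −0.0926 and *Hlf* −0.0415, and with at least 50 counts in 2 libraries *Per2* was −0.0162. With 1 library left out, *Clock* ran from −0.0655 to 0.156, *Per2* from −0.0861 to 0.118, *Dbp* from −0.0042 to 0.364 and *Hlf* from −0.0868 to 0.226.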
